A study of Rattus norvegicus with 3 samples.

Results

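Peaks of the histone mark H3K4me2 were described at 10 genes whose proteins hepatocytes secrete into the blood: Alb, Ttr, Tf, Apoa1, Apob, Fga, Fgb, Fgg, Serpina1 and Ahsg. A peak was counted for a gene when the deposited annotation named that gene, alone or beside another gene, as the place of the peak. By this rule 18 of the 7128 peaks of the olanzapine library and 39 of the 19449 peaks of the clozapine library belonged to the 10 genes, out of 18539 protein-coding genes considered. The rule that picks the peaks uses gene names and no measured value, although the genes were chosen with earlier results of these data known. Nearly all of these genes carried a listed peak in both libraries, mostly of the exonic class. Where the strand could be set, the clozapine peaks lay further along the gene body than the olanzapine peaks. They did so at most genes of the lists.

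The libraries came from liver tissue of female Sprague-Dawley rats. The rats were given olanzapine (3 mg/kg), clozapine (20 mg/kg) or a vehicle, which was the same sweet dough pellet without drug, by mouth 2 times a day for 9 weeks, with 12 animals per group. Clozapine was moved from the pellet to a syringe given into the mouth because the rats came to refuse the drugged pellet. All rats were fasting when killed shortly after the last dose. Each of the 3 libraries is labelled with a single animal, 1 given olanzapine, 1 clozapine and 1 vehicle. Peaks of the olanzapine and the clozapine library were used (called olanzapine peaks and clozapine peaks below), and the vehicle library was not analysed here. With 1 library per drug and no vehicle values there was no replicate error, no background level and no test between the drugs, so every value below describes these libraries. Drug, dose, route and library cannot be told apart. By the study's read summaries, the clozapine and olanzapine libraries had similar numbers of clean reads. Several times fewer reads were nevertheless assigned to the genome for clozapine than for olanzapine. The part of this difference in the results was not tested.

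Hepatocytes devote much of their transcription to proteins that leave the cell for the plasma, among them albumin, transport proteins, apolipoproteins, clotting factors and protease inhibitors. Their genes are driven in adult liver by a shared set of transcription factors that includes HNF1, HNF4, C/EBP and forkhead proteins. H3K4me2, a dimethyl mark on lysine 4 of histone H3, is commonly found around the starts of active genes, at enhancers and over the beginning of gene bodies.

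The promoters of these genes were examined first, because the mark is usually found around gene starts. RefSeq promoter windows of assembly GRCr8 (250 bases before and 50 bases after the start) were held for 8 of the 10 genes and for 15165 genes in all, and none was held for Apoa1 or Apob. The 150 bases before the start are shown for 6 genes, which cover albumin, transferrin, all fibrinogen chains and fetuin-A. They are written 5′ to 3′ on the gene's strand, and capitals mark matches, on either strand, to a TATA box (TATAAA), an HNF1 motif (GTTAAT) or a C/EBP motif (TTGCNNAA, where N is any base).
Alb (chr14:17906980-17907129, minus strand): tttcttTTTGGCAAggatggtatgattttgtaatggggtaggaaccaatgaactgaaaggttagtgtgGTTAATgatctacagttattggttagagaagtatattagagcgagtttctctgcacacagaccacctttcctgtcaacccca
Tf (chr8:112695377-112695526, minus strand): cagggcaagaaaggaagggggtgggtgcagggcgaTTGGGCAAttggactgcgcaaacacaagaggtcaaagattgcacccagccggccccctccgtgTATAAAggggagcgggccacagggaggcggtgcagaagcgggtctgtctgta
Fga (chr2:170672019-170672168, plus strand): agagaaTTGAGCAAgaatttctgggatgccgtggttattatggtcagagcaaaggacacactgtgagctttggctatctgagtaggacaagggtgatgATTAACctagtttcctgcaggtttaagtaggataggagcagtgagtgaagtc
Fgb (chr2:170700876-170701025, minus strand): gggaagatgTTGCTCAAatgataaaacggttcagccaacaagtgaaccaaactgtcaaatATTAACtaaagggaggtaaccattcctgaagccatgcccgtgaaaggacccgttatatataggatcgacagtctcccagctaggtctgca
Fgg (chr2:170652933-170653082, plus strand): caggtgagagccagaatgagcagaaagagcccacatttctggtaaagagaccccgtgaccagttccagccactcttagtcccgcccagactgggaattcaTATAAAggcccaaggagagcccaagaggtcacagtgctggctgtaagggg
Ahsg (chr11:91632584-91632733, minus strand): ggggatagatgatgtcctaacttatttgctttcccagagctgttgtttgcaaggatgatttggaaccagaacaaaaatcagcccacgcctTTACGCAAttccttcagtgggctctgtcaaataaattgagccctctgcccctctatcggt

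Within the 300-base windows, the TATA box letters stood in 2 of the 8 genes (Tf and Fgg) and in 11.8% of all promoters. The HNF1 letters stood in 3 genes (Alb, Fga and Fgb) and in 6.26% of all promoters. The C/EBP letters stood in 5 genes (Alb, Tf, Fga, Fgb and Ahsg) and in 10% of all promoters. A forkhead motif (TGTTTAC) was found in Fgb and in 2.86% of all promoters, and an HNF4 core (CAAAGT) in Ahsg and in 13% of all promoters, both outside the stretch shown. None of these motifs was found in the windows of Ttr and Serpina1. Both strands were searched and the motifs do not overlap one another in the sequences shown. A match is a description of the letters and not a binding site.

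The 8 promoters held few CpG dinucleotides. Their CpG observed/expected ratio, which sets the number of CpG dinucleotides against that given by the base composition, had a median of 0.275, against 0.656 over all 15165 genes. It was lowest for Alb (0.163) and highest for Tf (0.483), so each of the 8 lay below the median of all genes. The number of CpG dinucleotides per window was 5 at the median and 16 over all genes, and the GC content was 47.7% and 58%.

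**Figure D1:**
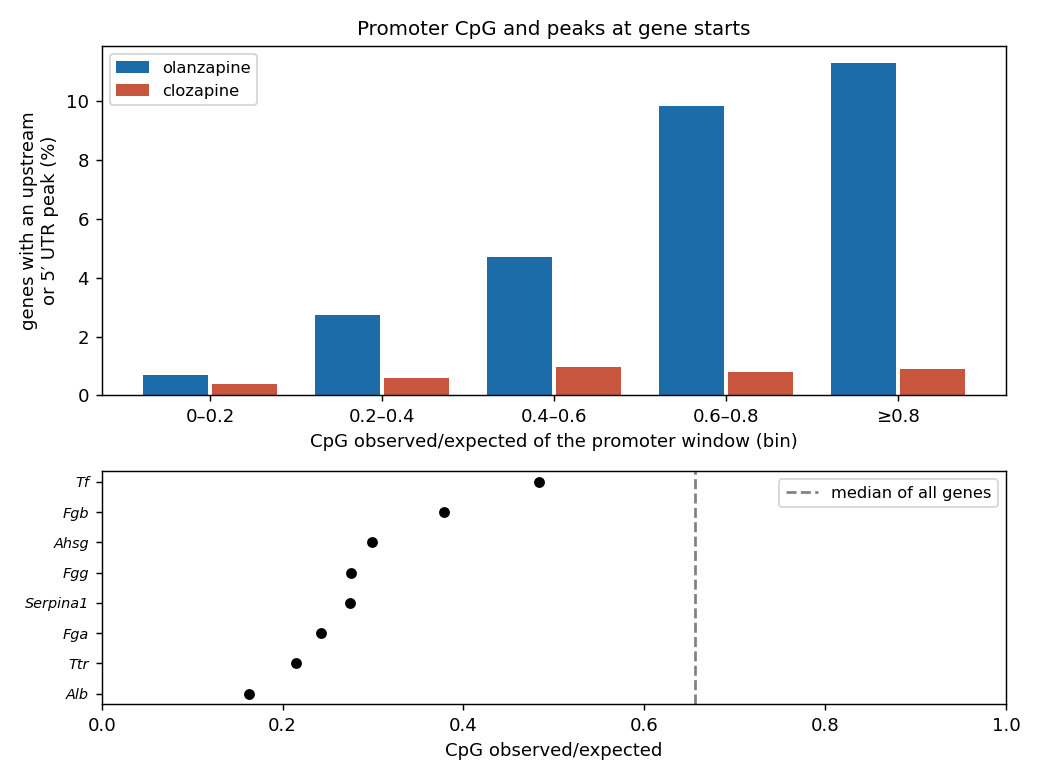
Upper panel: share of genes with an upstream or 5′ UTR peak (%, y axis) by bins of the promoter CpG observed/expected ratio (x axis), 1 bar per library. Lower panel: the ratio of the 8 plasma protein genes with a promoter window (points), all of which lie below the median of all genes, 0.656 (dashed line).

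No upstream or 5′ UTR peak was placed at any of the 10 genes in either library. Over all protein-coding genes, the share with an olanzapine peak of this kind was 6.89% and with a clozapine peak 0.804%, so the absence at 10 genes is near the background. Among olanzapine peaks the share of genes with such a peak differed along the CpG ratio, from 0.709% of genes with a ratio below 0.2 to 11.3% of genes at or above 0.8. Among clozapine peaks it was 0.394% and 0.903% in the same bins. Of the 8 plasma protein genes, 1 fell in the lowest bin, 6 in the bin from 0.2 to 0.4, where 2.74% of genes carried an olanzapine peak of this kind, and 1 in the bin from 0.4 to 0.6.

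By class, the peaks of the plasma protein genes were mostly exonic. A peak of the exonic class can still lie near a gene start. Olanzapine peaks of this class began 127 bp (Ahsg), 396 bp (Alb) and 460 bp (Fgg) inside the gene. In the olanzapine library 13 of the 18 peaks of the 10 genes were exonic, 1 intronic and 4 intergenic. Of the 39 clozapine peaks 31 were exonic, 1 lay in a 3′ UTR and 7 were intergenic. Over the whole lists 2923 of 7128 olanzapine peaks and 4087 of 19449 clozapine peaks were exonic. Leaving out intergenic peaks, 10 of the 10 genes carried an olanzapine peak, against 25.3% of all protein-coding genes. Some of these peaks stood near the floor of the list. The only olanzapine peak of Apoa1 had a -log10 q of 1.26 and ranked 6935 of 7128 by -log10 p. The weaker olanzapine peaks of Alb and Tf had a -log10 q of 1.27 and 1.23. A clozapine peak stood at 9 of the 10, all but Ahsg, against 27% of all protein-coding genes. Weak single peaks were counted here too. The only clozapine peak of Apoa1 had a -log10 q of 1.69 and ranked 18847 of 19449 by -log10 p. That of Fga had a -log10 q of 2.23 and ranked 16580. An olanzapine peak of the upstream, 5′ UTR or exonic class was present at 9 genes, all but Serpina1 with its intronic peak, against a background of 21.5%. A clozapine peak of these classes was also present at 9 genes, against 13.8%. Each of these counts was above its background. Peaks of these classes also differed along the CpG ratio. From the bin below 0.2 to that at or above 0.8, they stood at 3.51% and 36.3% of genes for olanzapine and at 5.75% and 20.3% for clozapine. In the bin from 0.2 to 0.4, which held 6 of the plasma protein genes, the shares were 7.71% and 8.74%. The 10 genes stand here as the hepatocyte markers, and all but Ahsg carried peaks in both libraries. They were chosen with earlier results of these data known, so their peaks are no check of the tissue label.

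Several peaks at 1 gene were more frequent than over all genes. In the olanzapine library 4 genes (Alb, Ttr, Tf and Fgg) had 2 or more peaks that were not intergenic, against 2.04% of all protein-coding genes. For clozapine 6 genes (those 4, Apob and Serpina1) had 2 or more, against 10.5%. Gene length was not compared.

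The strength of the peaks stood differently in the 2 lists. The fold enrichment, a ratio over a background that the sources used here do not name, is comparable only within a list. In the olanzapine library the 14 peaks that were not intergenic had a median fold enrichment of 4.08 (range 3.32 to 6.01), and 5 of the 14 exceeded the list's median of 4.28. The 32 clozapine peaks had a median of 5.06 (range 2.9 to 11.1), and 27 of the 32 exceeded the list's median of 3.66. The olanzapine peaks were thus spread over their list, from above 3.47% of it (Apob) to above 95% (Ttr), and most clozapine peaks lay in the upper part of theirs. The -log10 p of the peak caller exceeded its list's median at 5 of 14 olanzapine peaks and at 23 of 32 clozapine peaks.

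The peaks were longer than most of their list in both libraries. The median length was 889 bp (range 218 to 3073 bp) in the olanzapine library, against 612 bp for all peaks of the list that were not intergenic, and 10 of 14 were above that value. For clozapine it was 282.5 bp (range 170 to 4719 bp) against 172 bp, and 26 of 32 were above. Of these peaks, those not longer than 200 bp were 0 of 14 for olanzapine and 10 of 32 (31.2%) for clozapine, where 59.4% of all peaks of the list that were not intergenic were that short. Nearly all of these peaks were exonic, and exonic peaks were longer in both lists, with a median of 707 bp for olanzapine and 239 bp for clozapine, where 43.7% were not longer than 200 bp.

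**Figure D2:**
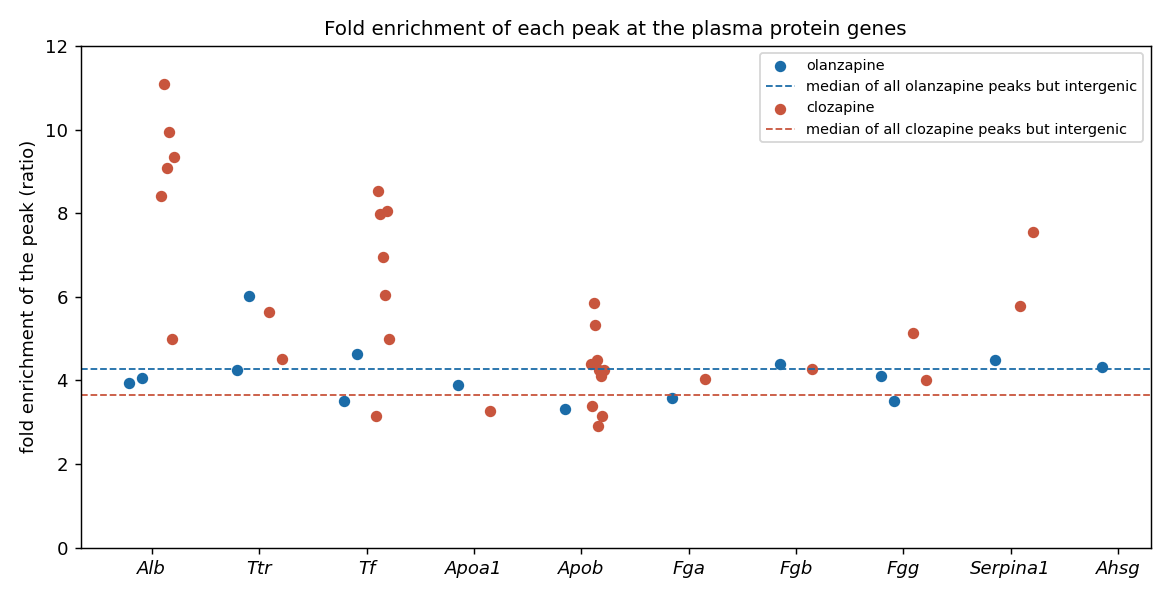
Fold enrichment (ratio, y axis) of each peak that was not intergenic at the 10 genes (x axis), 1 point per peak and 1 colour per library, with each list's median as a dashed line. The highest points are clozapine peaks of Alb, up to 11.1, and Ahsg has an olanzapine peak only.

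Albumin, encoded by Alb, is the most abundant plasma protein and carries fatty acids, hormones and drugs. Alb lay on chromosome 14 (all positions of peaks and gene ends are in build Rnor_6.0) on the minus strand, with its 5′ end at 19191793. The olanzapine library had an exonic peak of 3073 bp at 19188325 to 19191397 with a fold enrichment of 4.06, which started 396 bp inside the gene, and another of 688 bp at 19186487 to 19187174 with 3.94. Both lay in the first part of the gene, and both were below the median of their list.

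The clozapine library had 6 peaks in Alb, with a fold enrichment from 4.98 to 11.1. The strongest, 907 bp at 19179152 to 19180058, had a fold enrichment of 11.1 and a -log10 p of 24.9, which ranked 53 in a list of 19449 peaks. Its neighbour, 2522 bp at 19180955 to 19183476, had a fold enrichment of 9.09. Shorter exonic peaks stood at 19184361 to 19184562 (fold enrichment 9.94) and at 19188155 to 19188354 (9.35), and the peak of 258 bp in the 3′ UTR at 19176297 to 19176554 had 8.41. A peak of 1333 bp at 19185883 to 19187215 was the weakest of the 6, at 4.98. The clozapine peaks thus ran from 3439 bp inside the gene to 15496 bp, spread over the later part of the gene body, and 5 of the 6 had a higher fold enrichment than at least 99.3% of their list. The weakest was the one that held the whole of an olanzapine peak (688 bp of overlap), and the peak nearest the 5′ end overlapped the long olanzapine peak by 30 bp.

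Beyond its 5′ end, 4 intergenic peaks were assigned to Alb together with Ankrd17. The olanzapine peaks lay 44143 bp and 101740 bp away with fold enrichments of 3.97 and 4.64. The clozapine peaks lay 66614 bp and 70713 bp away with 5.73 and 7.5. None overlapped a peak of the other library, and the nearest pair was 22275 bp apart.

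**Figure D3:**
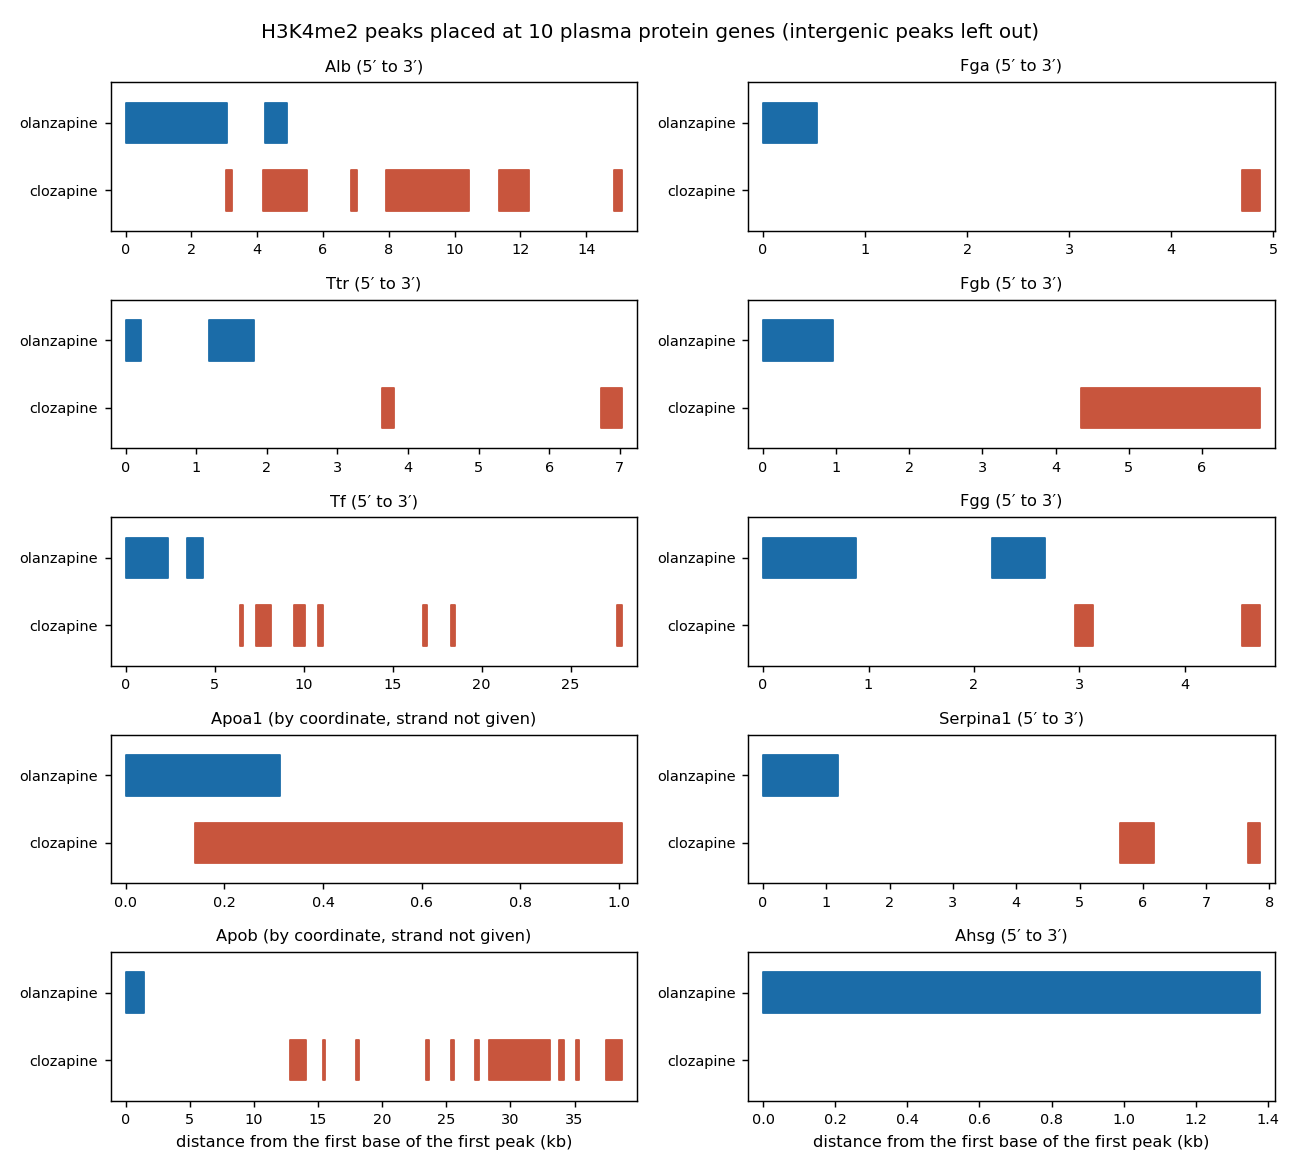
Position of the peaks that were not intergenic along each of the 10 genes (x axis, kb from the first base of the first peak, scale set per gene), with olanzapine peaks above and clozapine peaks below. The 8 genes with a known strand run 5′ to 3′, and Apoa1 and Apob run by coordinate. In 6 of the panels with a strand every clozapine bar lies to the right of every olanzapine bar, while Alb and Apoa1 show overlap.

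Transthyretin, encoded by Ttr, carries thyroxine and the retinol-binding protein. Its olanzapine peaks were 218 bp at 15539809 to 15540026 on chromosome 18, with a fold enrichment of 6.01, and 632 bp at 15538210 to 15538841, with 4.25. The former was the strongest olanzapine peak of the 10 genes, above 95% of its list. Its clozapine peaks were 170 bp at 15536229 to 15536398 (fold enrichment 4.52) and 307 bp at 15532988 to 15533294 (5.64). No Ttr peak overlapped between the libraries, and the nearest were 1811 bp apart. The minus strand given to Ttr here rests on the order of 2 neighbouring genes, which is reversed between the builds.

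Transferrin, encoded by Tf, carries iron to the tissues. The olanzapine library had exonic peaks of 2381 bp at 111720115 to 111722495 on chromosome 8 (fold enrichment 4.63) and of 892 bp at 111718155 to 111719046 (3.5). The clozapine library had 7 exonic peaks between 111694586 and 111716082, of 174 to 858 bp. Their fold enrichments, in order of coordinate, were 3.16, 8.53, 7.97, 6.94, 6.05, 8.05 and 4.98. The outermost peaks on each side were the weakest, and the 5 between them each exceeded at least 95.8% of their list. On the minus strand all 7 lay 3′ of both olanzapine peaks, with a gap of 2072 bp.

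Apolipoprotein A1, encoded by Apoa1, is the main protein of high-density lipoprotein. Its olanzapine peak was 312 bp at 50525355 to 50525666 on chromosome 8 with a fold enrichment of 3.89, and its clozapine peak was 867 bp at 50525495 to 50526361 with 3.28. They overlapped by 172 bp, and each was below the median of its list. Apoa1 lies beside Apoc3, Apoa4 and Apoa5, which encode further lipoprotein components. A window of 36558 bp was set by the olanzapine peaks at Apoa1 and Apoa5. Within it the olanzapine library had 5 peaks, 1 at each of the 4 genes and 1 intergenic, while the clozapine library had the Apoa1 peak and 1 intergenic peak. Olanzapine peaks at both edges were fixed by the choice of window, so these counts are not an even comparison.

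Apolipoprotein B, encoded by Apob, is the structural protein of very low-density and low-density lipoproteins. The distances in the lists placed the gene at 33176826 to 33216380 on chromosome 6, a length of 39555 bp. The single olanzapine peak, 1454 bp at 33176998 to 33178451, began 172 bp from the lower end and had a fold enrichment of 3.32, higher than only 3.47% of its list. The clozapine library had 10 exonic peaks, which covered 9030 bp and began 13001 bp from the lower end, the last one ending 654 bp from the upper end. Their fold enrichments ranged from 2.9 to 5.86, and the longest, 4719 bp at 33205351 to 33210069, had 4.25. The olanzapine peak thus stood at the lower end of Apob and the clozapine peaks over the rest of the gene, with 11375 bp between the nearest of them. A further 4 clozapine peaks were intergenic, from 51597 bp to 1501735 bp away, with fold enrichments from 3.74 to 4.

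Fga, Fgb and Fgg encode the chains of fibrinogen, the precursor of the fibrin clot, and lie side by side on chromosome 2. A window of 47235 bp was set by the outer olanzapine peaks, at Fgg and Fgb. Within it each library had 4 peaks, 1 in Fga, 1 in Fgb and 2 in Fgg, all exonic, and none overlapped between the libraries. In Fga the olanzapine peak was 533 bp at 182006389 to 182006921 (fold enrichment 3.57), and the clozapine peak was 170 bp at 182011087 to 182011256 (4.03), 4165 bp further 3′. In Fgb, on the opposite strand, the olanzapine peak was 953 bp at 182033976 to 182034928 (4.39), and the clozapine peak was 2440 bp at 182028136 to 182030575 (4.27), 3400 bp further 3′. The order was therefore the same in both genes although they point in opposite directions. In Fgg, whose 5′ end was at 181987234, the olanzapine peaks began 460 bp and 2627 bp inside the gene, with fold enrichments of 4.11 and 3.51. The clozapine peaks of Fgg were 170 bp each and began 3414 bp and 5000 bp inside, with 5.14 and 4.02. The nearest peaks of the libraries in Fgg were 285 bp apart. A clozapine peak of 307 bp (4.6) lay 6560 bp beyond the 5′ end.

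Serpina1 encodes alpha-1-antitrypsin, the inhibitor of neutrophil elastase. It was the gene among the 10 without an exonic olanzapine peak. Its olanzapine peak was intronic, 1190 bp at 127619071 to 127620260 on chromosome 6 with a fold enrichment of 4.49, and began 12005 bp inside the gene. The clozapine peaks were exonic, 547 bp at 127614082 to 127614628 (7.56) and 180 bp at 127612413 to 127612592 (5.79). Both lay 3′ of the olanzapine peak, the nearer one by 4442 bp. An intergenic olanzapine peak of 245 bp (4.31) lay 9691 bp beyond the 5′ end.

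Ahsg encodes fetuin-A, an inhibitor of calcification. Its olanzapine peak was 1377 bp at 81716091 to 81717467 on chromosome 11 with a fold enrichment of 4.33, and began 127 bp inside the gene. An intergenic olanzapine peak of 264 bp (4.64) lay 2544 bp beyond the 5′ end. No clozapine peak was assigned to Ahsg, and the nearest clozapine peak was 94454 bp away, at Hrg, which encodes histidine-rich glycoprotein. A window of 274633 bp was set by 2 olanzapine peaks, from that at Kng1, the kininogen gene, to that at Ahsg. Within it the olanzapine library had 7 peaks, 3 of them at Fetub, and the clozapine library had the Hrg peak alone. Olanzapine peaks at both edges were fixed by the choice of window, so these counts are not an even comparison. The clozapine library had the fewer genome-assigned reads, and a gene without a listed peak is not shown to lack the mark.

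Few peaks coincided. Of the peaks that were not intergenic, 3 of 14 olanzapine peaks and 3 of 32 clozapine peaks overlapped one of the other library by at least 1 bp, in Alb and Apoa1. Over all such peaks 2.55% (136 of 5323) of olanzapine peaks and 1.49% (138 of 9290) of clozapine peaks did so. The same genes were thus mostly marked at different places.

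The direction of the offset was the same in each gene that could be compared. In 7 genes with a strand and peaks in both libraries, the mean centre of the clozapine peaks lay further 3′ than that of the olanzapine peaks. The offset was 5427 bp in Alb, 4494 bp in Ttr, 11441 bp in Tf, 4516 bp in Fga, 5096 bp in Fgb, 2402 bp in Fgg and 6237 bp in Serpina1. In 6 of the 7, all but Alb, every clozapine peak lay 3′ of every olanzapine peak. This order was general to the lists: of 1609 genes with a strand and peaks in both, the clozapine peaks lay further 3′ on average in 94.5% (1521 genes) and entirely 3′ in 87.4% (1406 genes). Counts of 7 of 7 and 6 of 7 stand near those shares and are not particular to plasma protein genes. With the strand of the GRCr8 table and no check of local gene order, Ttr turned and the count was 6 of 7.

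The distance from the 5′ end gave the same picture. Where the lists fixed a gene's 5′ end, 85.8% of olanzapine peaks (1117 of 1302) and 8.66% of clozapine peaks (229 of 2643) had their nearest edge within 2 kb of it. These are genes that border an intergenic peak of either list. The centre of the peaks lay at a median of 292.8 bp for olanzapine (quartiles at 46.12 and 755.6 bp) and of 27620 bp for clozapine (quartiles at 9228 and 72539 bp). Among Alb, Fgg, Serpina1 and Ahsg, which had a fixed 5′ end, 3 of 6 olanzapine peaks and 0 of 10 clozapine peaks were within 2 kb. Those 3 were the first peaks of Alb, Fgg and Ahsg, starting at 396, 460 and 127 bp, and the promoters of these genes are among those shown above, read from another build. The median centre was 2405 bp for the olanzapine peaks of these genes and 8454 bp for the clozapine peaks.

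**Figure D4:**
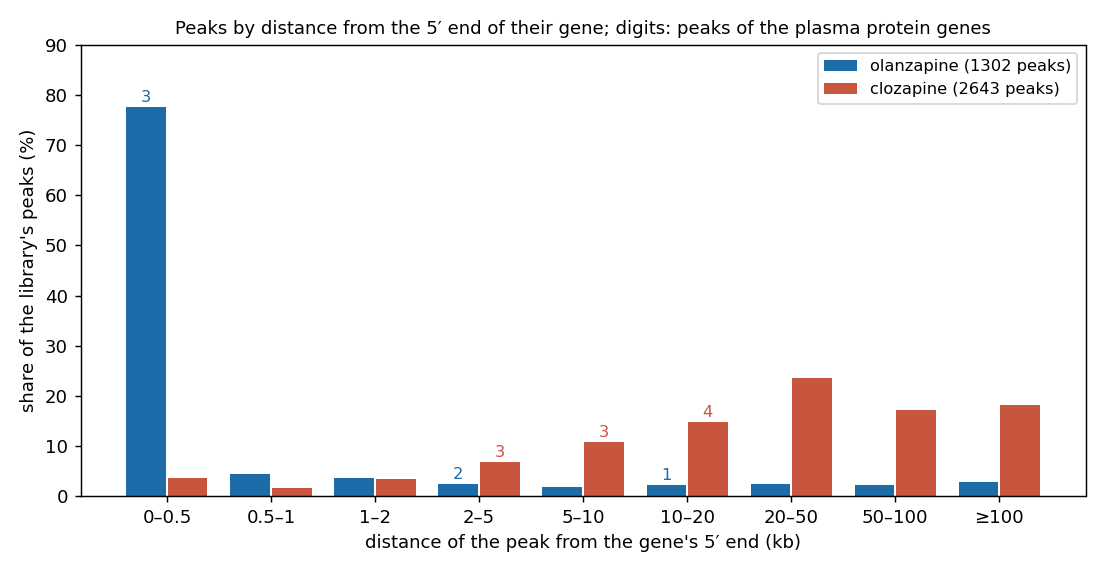
Share of each library's peaks (%, y axis) by distance from the 5′ end of their gene (kb, x axis), over 1302 olanzapine and 2643 clozapine peaks. Digits above the bars count the peaks of plasma protein genes, which in the olanzapine library fall in the first bin 3 times and in the clozapine library only from 2 kb to 20 kb.

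Other secreted liver proteins were set beside the 10 genes from 6 lists, of which 102 genes were in the names table. A peak that was not intergenic was present at 58 of the 102 (56.9%) for olanzapine and at 30 (29.4%) for clozapine, with 18 genes in both. Both shares can be read against 25.3% and 27% over all protein-coding genes. An upstream or 5′ UTR peak was present at 2 genes for olanzapine and at 1 for clozapine.

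By list, apolipoproteins and lipoprotein assembly carried olanzapine peaks at 13 of 17 genes and clozapine peaks at 4. Among the olanzapine peaks with the highest -log10 p in this list were those at Apoa2 (fold enrichment 5.95) and Apoc3 (4.76). The clozapine peaks included those at Apoe (5.47, and 3.95 for olanzapine), Lipc (4.5), the hepatic lipase gene, and Apoc2 (2.99). Apoc2 was the list's gene with an olanzapine peak in its 5′ UTR (5.13).

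Coagulation and fibrinolysis genes carried olanzapine peaks at 12 of 22 and clozapine peaks at 9. The olanzapine peaks with the highest -log10 p were at Kng1 (fold enrichment 3.25), Pros1 (4.49), the protein S gene, and F2 (4.04), the prothrombin gene. The Kng1 peak was annotated to Kng1l1 as well. The clozapine peaks with the highest -log10 p were at F10 (10), the factor X gene, Klkb1 (4.78), the plasma kallikrein gene, and F2 (4.57). Serpinc1, which encodes antithrombin, had fold enrichments of 3.59 and 4.21 for olanzapine and clozapine. Plg, the plasminogen gene, had 3.57 and 3.97, and F10 had 4.37 in the olanzapine list.

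Complement and lectin genes carried olanzapine peaks at 10 of 21, led by Cfb (4.54), C1r (4.41) and C8g (4.42), and clozapine peaks at 3, among them C4a (6.51) and C3 (6.61). C4a also had an olanzapine peak (4.97). C3, the central complement component, had 1 olanzapine peak (4.42) and 9 clozapine peaks, counts close to the 1 and 10 of Apob. C4a has a near-identical copy, so its peaks are uncertain.

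Carriers and binding proteins carried olanzapine peaks at 8 of 15 and clozapine peaks at 6, and 5 genes had both. Rbp4, the retinol-binding protein that Ttr carries, had its strongest peak at 5.07 for olanzapine and 5.49 for clozapine. Gc, the vitamin D-binding protein gene and a relative of Alb, had 4.69 and 6.05. Hp, which encodes haptoglobin, had 4.78 and 5.05, Hpx, which encodes hemopexin, had 3.62 and 4.31, and Ambp had 3.94 and 3.4. Igfals (4.8) had an olanzapine peak.

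Protease inhibitors and acute phase genes carried olanzapine peaks at 10 of 18, led by Lbp (7.12), Itih1 (5.53) and Spp2 (5.3), and clozapine peaks at 7, led by Crp (6.84), Itih4 (4.44) and Serpinf1 (3.57). In both lists stood Itih3 (4.21 for olanzapine and 2.93 for clozapine), Itih4 (4.2 for olanzapine), Serpina3n (4.77 and 4.1) and Serpinf1 (3.97 for olanzapine). The Crp peak, at the gene of C-reactive protein, lay in the upstream class. Hepatocyte hormones and precursors carried olanzapine peaks at 5 of 9, led by Fgf21 (5.66), Igfbp4 (4.68) and Igfbp1 (3.38), and a clozapine peak at 1, Igfbp4 (4.39).

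The order along the gene was the same in these lists. In 16 of 16 genes with a strand and peaks in both libraries the clozapine peaks lay further 3′ on average, and in 12 entirely so. The offset ranged from 356.2 bp in Apoe to 36910 bp in Plg. Within 2 kb of the 5′ end stood 9 of 11 olanzapine peaks (81.8%) and 2 of 12 clozapine peaks (16.7%).

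In the deposited pathway tables, the term for complement and coagulation cascades listed 28 input genes for olanzapine and 21 for clozapine of 83 background genes, with 10 genes in both. Over all protein-coding genes, 25.3% had an olanzapine peak that was not intergenic and 27% a clozapine peak. The clozapine count was near that share and the olanzapine count somewhat above it. Fga, Fgb, Fgg and Serpina1 stood in the input of both tables. The pathway term holds the gene names alone and does not show that the peaks lay at different places.

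Markers of other liver cell types differed between the libraries as well, with more of them marked in the clozapine list. Of 40 markers of endothelium, stellate cells, Kupffer cells, cholangiocytes and lymphocytes, 0 carried an olanzapine peak that was not intergenic and 17 (42.5%) carried a clozapine peak, against 25.3% and 27% of all protein-coding genes. These were 6 of 9 endothelial markers, with Stab2 (fold enrichment 5.73), Kdr (5.01) and Tek (4.65) ahead, and 6 of 10 stellate cell markers, with Col3a1 (4.46), Pdgfrb (4) and Hgf (3.81). They were also 3 of 6 cholangiocyte markers, Krt19 (5.99), Spp1 (5.02) and Sox9 (4.91), 1 of 7 Kupffer cell markers, Adgre1 (4.8), and 1 of 8 lymphocyte markers, Pax5 (5.19). The strongest clozapine peaks of Alb (11.1), Tf (8.53) and Serpina1 (7.56) had a higher fold enrichment than each marker peak named here. Those of Apob (5.86), Ttr (5.64), Fgg (5.14), Fgb (4.27), Fga (4.03) and Apoa1 (3.28) lay below that of Krt19. Ahsg had no clozapine peak. The part of cell composition in the results above was not tested.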

How the data were processed

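H3K4me2 ChIP-seq was made from liver chromatin with an anti-dimethyl-H3-K4 antibody. The authors removed reads with adapters, undetermined or low-quality bases, aligned the rest to Rnor_6.0 with BWA and scanned uniquely aligned reads for peaks. The peak caller, its threshold and its control are not given in the sources used here. The deposited peak lists give a fold enrichment (a ratio), -log10 of the p-value and of the q-value, a position, a length and an ANNOVAR-style class and gene for each peak. Positions count from 1. The lists hold no read numbers per peak, so no interval was computed. By the study's read summary, whose values are not given here, the clozapine library had fewer reads assigned to the genome than the olanzapine library. The deposited pathway tables were used for gene names and gene numbers, and the p-values they hold were not used, nor were the GO tables and the second sheets.

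Rows were selected by gene symbol, and names that a spreadsheet had turned into dates were left out. A gene end in Rnor_6.0 was taken from the distances that intergenic peaks carry: 10276 ends were implied, 10203 of them (99.3%) by a single value. Strand was taken from the GRCr8 promoter table and turned where at least 80% of neighbours within 1 Mb (at least 2) stood in reverse order. It matched the side of the gene for 106 of 107 upstream peaks (99.1%). The background was the 18539 protein-coding genes that have a curated transcript in a GRCr8 names table. No genome of the files' build was used, so no peak sequence was read. Promoters are from RefSeq, GRCr8.

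No test was run, since each drug had 1 library. The 10 genes, the 6 wider lists and the 5 marker lists were chosen with earlier results of these data known. The genes named are the 10 genes, up to 3 genes of each other list per library by -log10 p, and genes of the wider lists with a peak in both libraries. A few results under this rule are left out of the text. The value given for a gene is that of its peak with the highest -log10 p. Hrg, Fetub, Apoa4 and Apoa5 were named as neighbours after their values were seen. Counts were repeated on stricter lists (-log10 q from 5 up, fold enrichment from 5 up, or length above 200 bp), on chromosomes 1 to 20 with X, and with intergenic peaks within 5 kb, overlap of 50% of the shorter peak, a gap within 1 kb or the 250 bases before the start. Choices added after seeing the data were the order along the gene on those stricter lists or without the check of gene order, and genes with 2 or more peaks longer than 200 bp. On simulated data 100% of planted ends, strands, orders and overlaps were recovered. Python 3.11.15, numpy 2.4.6, pandas 2.3.3 and matplotlib 3.10.9 were used.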

Additional observations from a re-analysis of the deposited data

How the results depend on the processing

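With a -log10 q of at least 5, which few olanzapine peaks reach, the plasma protein genes held 0 olanzapine peaks in place of 18 and 17 clozapine peaks in place of 39. Genes with a peak were then 0 for olanzapine and 5 for clozapine, under each count of classes. Overlapping peaks and genes compared in order were 0, the clozapine median fold enrichment was 7.97, and the wider lists had a peak at 1 and 8 genes. With a fold enrichment of at least 5, which selects on the value itself, 1 olanzapine peak (Ttr, 218 bp) and 18 clozapine peaks were left. Genes with a peak were then 1 in the olanzapine library under each count of classes, overlaps were 0, 1 gene was compared in order, the clozapine median was 7.77 and the wider lists had a peak at 9 and 10 genes. With peaks longer than 200 bp, clozapine peaks numbered 23 with a median of 441.5 bp, 3 genes had 2 or more of them and 17 wider genes had a peak. The share of genes with clozapine peaks further 3′ was 93.1% of 29, 91.5% of 71 and 95.5% of 828 genes in these settings, and 91% of 1673 genes without the order check. The remaining alternatives moved no count by more than 1.5 times. No replicate could be left out and no paired analysis was possible because each drug had 1 library. The order of Ttr rests on 2 neighbours, and the strand of Apoa1 and Apob was not used.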
